A study of Mus musculus with 10 samples.

Results

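Superoxide, hydrogen peroxide and lipid peroxides are removed by a small set of abundant enzymes, and metallothioneins, short cysteine-rich proteins, bind zinc and copper and can also scavenge oxidants. The 10 genes described here are the superoxide dismutases Sod1 and Sod2, catalase (Cat), the glutathione peroxidases Gpx1 and Gpx4, the peroxiredoxins Prdx1 and Prdx6, the metallothioneins Mt1 and Mt2, and Selenop, which encodes the selenium transport protein that the liver secretes. They were chosen by name among the 21939 genes of the deposited table, and all 10 passed the filter on low counts, as did 13641 genes in all. Hepatocytes carry out much of the peroxide-producing metabolism of the body, in peroxisomes, mitochondria and the endoplasmic reticulum, and they are known for high catalase and for metallothioneins that respond to zinc, glucocorticoids and inflammatory cytokines. Nrf2 is a transcription factor that activates many antioxidant genes, and p65, encoded by Rela, is a subunit of NF-κB.

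RNA was sequenced from freshly isolated hepatocytes of male mice killed 12 days after injection of AAV8Cre. This virus expresses Cre under the hepatocyte-specific thyroxine-binding globulin promoter. The age given for the mice is 8 to 9 weeks, which by the study's methods appears to be the age at injection and not at death. All 4 groups received the virus. The control mice (n = 3) were C57BL6/j without floxed alleles, the Nrf2 KO mice (n = 2) were Nrf2 flox/flox, the p65 KO mice (n = 2) were p65 flox/flox, and the Nrf2:p65 DKO mice (n = 3) were floxed at both genes. Each library came from 1 mouse, and the total estimated count per library was between 33707165 and 49897382. The targeted genes did not fall in the libraries labelled as knockouts. The count of Nfe2l2, which encodes Nrf2, rose by 1.21 on the log2 scale in the libraries labelled Nrf2 KO (SE 0.156, adjusted p = 0.00488) and by 1.02 in those labelled DKO (SE 0.143, adjusted p = 0.00347), and the log2 fold change of Rela was -0.07 in the libraries labelled p65 KO (adjusted p = 0.765). The table gives 1 total per gene, so reads of the deleted exons cannot be told apart from the rest of the transcript, and the totals do not check the deletion. The study itself reported an efficient knockout of both genes in isolated hepatocytes 12 days after the virus, by RT-qPCR and Western blot. Among 14 known Nrf2 targets, 6 fell in the libraries labelled Nrf2 KO (beside 0.726% of all genes called in either direction). In those labelled DKO, 8 fell (beside 5.45%), and in those labelled p65 KO, 3 fell and 1 rose (beside 14.9%). Several of these targets were named by the study from these samples, so the counts are not independent evidence of direction.

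Hepatocyte markers were abundant in every library, and markers of other liver cells differed between the groups. The summed normalized counts of 10 hepatocyte markers lay between 3788000 and 5934000 over all 10 libraries. The 12 Kupffer cell markers summed to between 428.5 and 1068 in control libraries, between 308 and 916.5 in Nrf2 KO, between 4814 and 6491 in p65 KO, and between 1833 and 3195 in DKO. The 8 sinusoidal endothelial markers summed to between 628.3 and 1389 in control, between 890.8 and 1616 in Nrf2 KO, between 3297 and 4300 in p65 KO, and between 1784 and 2418 in DKO. The 8 stellate cell markers summed to between 196.6 and 409.1 in control, between 183.5 and 311.4 in Nrf2 KO, between 1969 and 1999 in p65 KO, and between 362.9 and 953.8 in DKO. Against control, 12 of 12, 8 of 8 and 6 of 8 markers of these 3 cell types were higher in p65 KO, beside 8.13% of all genes. In DKO, 6 of 12, 1 of 8 and 1 of 8 were higher, beside 2.61%. Of the tested T and NK, B, cholangiocyte and erythroid markers, 0 of 7, 1 of 4, 0 of 3 and 0 of 5 were higher in p65 KO. In DKO, 1, 1, 0 and 0 were. The 6 erythroid markers summed to between 3362 and 4675 in control, between 3650 and 3783 in Nrf2 KO, between 3133 and 3516 in p65 KO, and between 4730 and 5605 in DKO. The 8 neutrophil markers summed to between 2.80 and 6.88 in control and between 6.92 and 8.08 in Nrf2 KO. The sum was between 12.29 and 53.84 in p65 KO and between 10.3 and 44.18 in DKO. Of the 5 neutrophil markers tested, 1 was higher in p65 KO and 0 were in DKO. The defining neutrophil gene Ly6g was at 0 in all 10 libraries. In such bulk samples, fewer cells of a type and less RNA per cell cannot be told apart.

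The sequences near Mt1 and Mt2 are shown first, because these genes were the members with the largest differences between genotypes and they lie side by side. On GRCm39 (GENCODE M39), Mt2 occupies 94898819 to 94900207 of chromosome 8 and Mt1 94905710 to 94906955, both on the plus strand, with 5502 bases between them. The metal response element is the short motif through which the zinc-sensing factor MTF-1 acts, and its core was searched as TGCACNC and TGCGCNC on both strands in the 300 bases before the start codon. Each gene held 5 matches. Of 13216 windows of the same kind among the genes tested, 29.5% held at least 1 match and 0.159% held 5 or more. All 10 matches lay upstream of the TATAAA box, which begins 101 bases before the start codon of Mt1 and 95 bases before that of Mt2. Each site is printed 5′ to 3′ on the plus strand with the match in capitals, and the name gives the distance from the first base of the match to the start codon.
Mt1, 245 bases before: cccgctgTGCACACtggcgct
Mt1, 220 bases before: ggagctcTGCACTCcgcccga
Mt1, 202 bases before: cgaaaagTGCGCTCggctctg
Mt1, 138 bases before: gcctgctGGGTGCAaaccctt
Mt1, 124 bases before: aacccttTGCGCCCggactcg
Mt2, 280 bases before: ggagggcGTGTGCAggctctg
Mt2, 226 bases before: tcgggtcGTGCGCAggcccag
Mt2, 172 bases before: aaagggcGTGTGCAggcggcg
Mt2, 153 bases before: cgggggcGCGTGCAtggtgcc
Mt2, 119 bases before: gagctttTGCGCTCgacccaa
In Mt1, 4 of the matches were on the plus strand, and in Mt2, 1 was. A match is a description of the letters and not evidence of binding.

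The core of the antioxidant response element, to which Nrf2 binds with small Maf proteins, was searched as TGACNNNGC in the RefSeq promoter table (GRCm38.p6, 250 bases before to 50 bases after each gene start). This table held 9 of the 10 genes, all but Prdx6. The core was present once each in the windows of Sod1, Prdx1 and Mt2, and in 12.4% of the 32851 windows of the table. For Mt1 and Mt2, the gene start used here lies upstream of the TATAAA box, and the window ends before that box. The bases from there to the start codon were not searched for this core or for the NF-κB consensus given below. The sites are printed to show the letters in the promoters of genes whose levels are compared between the Nrf2 genotypes below. The name gives the distance from the gene start.
Sod1, 56 bases before, match on the minus strand: aaggtggGCGTGGTCAgactcag
Prdx1, 133 bases before, match on the minus strand: ggaaagcGCTGAGTCAtcccccg
Mt2, 79 bases before, match on the plus strand: gggggtgTGACTCAGCgcggggg
The NF-κB consensus was present in the windows of Sod2 and Prdx1 and in 4.51% of all windows. The core of the metal response element was found in these windows for Mt1 and Mt2 and for no other member, and in 25.7% of all windows.

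Levels are given as normalized counts, which are estimated counts divided by the library size corrected by TMM and scaled to a library of average size. Differences are log2 fold changes of edgeR's quasi-likelihood test, fitted on all 13641 genes with the 10 libraries in 1 model. Adjustment was by Benjamini-Hochberg over all genes, and a gene passed at an adjusted p of at most 0.05. The levels are compared between genotypes only, and not between genes.

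Mt1 and Mt2 were higher in p65 KO hepatocytes and, less securely, in DKO hepatocytes than in control hepatocytes. Mt1 was at 159, 299.9 and 556 normalized counts in the 3 control libraries, at 491 and 428.4 in Nrf2 KO, at 1486 and 1708 in p65 KO, and at 610.1, 1118 and 975 in DKO. All p65 KO and DKO libraries lay above all control libraries, whereas the Nrf2 KO libraries lay within the control range. Mt1 rose by 2.23 on the log2 scale in p65 KO (95% CI 1.37 to 3.10, a 4.7-fold difference, adjusted p = 0.006) and by 1.41 in DKO (95% CI 0.61 to 2.20, 2.65-fold, adjusted p = 0.0482). In Nrf2 KO, the log2 fold change was 0.44 (95% CI -0.44 to 1.31, adjusted p = 0.827). Mt2 was at 23.2, 40.3 and 105.5 normalized counts in control, at 89.97 and 75.98 in Nrf2 KO, at 378 and 555 in p65 KO, and at 173, 305.2 and 262 in DKO. It had the same order of libraries between genotypes, with no overlap of p65 KO or DKO with control. Mt2 rose by 3.03 on the log2 scale in p65 KO (95% CI 2.00 to 4.06, 8.17-fold, adjusted p = 0.00345) and by 2.11 in DKO (95% CI 1.15 to 3.07, 4.32-fold, adjusted p = 0.022), and its log2 fold change in Nrf2 KO was 0.54 (95% CI -0.54 to 1.61, adjusted p = 0.826). The control values of Mt2 rest on estimated counts of 21, 41 and 113, so counting error adds to the spread between these mice.

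The calls in DKO depended on single libraries. The control mice alone spanned 159 to 556 for Mt1, and without control replicate 1, the lowest of them, the DKO difference was 1.07 for Mt1 (adjusted p = 0.104) and 1.75 for Mt2 (adjusted p = 0.0629). The call of Mt2 was also lost without control replicate 2 (adjusted p = 0.0764) and without DKO replicate 2 (adjusted p = 0.0546). The call of Mt1 was kept only without control replicate 3 or DKO replicate 1, and was lost without control replicate 2 (1.33, adjusted p = 0.137), DKO replicate 2 (1.22, adjusted p = 0.114), DKO replicate 3 (1.35, adjusted p = 0.0925), or any 1 library of Nrf2 KO or p65 KO (adjusted p between 0.0663 and 0.0683). With only control and DKO in the model, the adjusted p was 0.099 for Mt1 and 0.0572 for Mt2. In p65 KO, both calls remained without any 1 library. Without control replicate 3, the highest of the control libraries, the difference of Mt2 was larger, at 3.86 in p65 KO (adjusted p = 0.00201) and at 2.94 in DKO (adjusted p = 0.00374). By mean level, the genotypes stood in the order control, Nrf2 KO, DKO and p65 KO for both genes. Of the neighbours in this order, control and Nrf2 KO overlapped. DKO lay above Nrf2 KO in every library, by 0.97 for Mt1 (95% CI 0.08 to 1.86, adjusted p = 0.311) and by 1.57 for Mt2 (95% CI 0.50 to 2.64, adjusted p = 0.188), and below p65 KO in every library, with log2 fold changes of -0.83 for Mt1 (95% CI -1.67 to 0.02, adjusted p = 0.231) and -0.92 for Mt2 (95% CI -1.88 to 0.04, adjusted p = 0.241). Neither pair of neighbours passed the test. The interaction, computed as the log2 difference of DKO from p65 KO less the log2 difference of Nrf2 KO from control, was -1.26 for Mt1 (95% CI -2.48 to -0.05, unadjusted p = 0.0433, adjusted p = 0.345, edgeR) and -1.46 for Mt2 (95% CI -2.90 to -0.01, unadjusted p = 0.0482, adjusted p = 0.356, edgeR). The summed Kupffer, endothelial and stellate markers were also highest in p65 KO and next in DKO, as given above, and their part in the metallothionein counts was not tested.

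**Figure D1:**
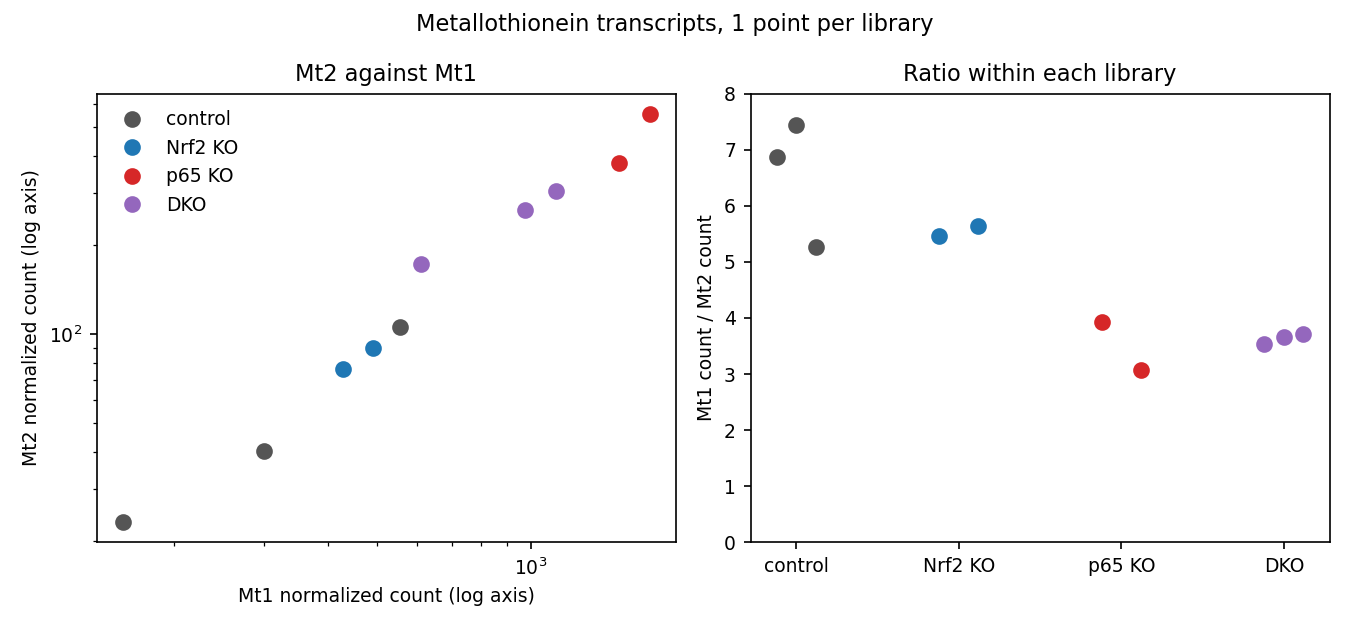
Left, normalized counts of Mt2 against Mt1 on log axes, 1 point per library and coloured by genotype. Right, the count of Mt1 divided by that of Mt2 in each library. The p65 KO points lie at the top right, the DKO points below them, and the ratio is between 5.27 and 7.44 in control libraries and between 3.08 and 3.93 in p65 KO.

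The 2 metallothionein counts moved together, and Mt2 moved by more. Over the 10 libraries, Pearson's r of their log2 counts was 0.991, and it was 0.982 without the 2 libraries farthest from the median of Mt1. The points share the genotypes and the libraries, so r is a description. The ratio of the count of Mt1 to that of Mt2 was 6.86, 7.44 and 5.27 in control, 5.46 and 5.64 in Nrf2 KO, 3.93 and 3.08 in p65 KO, and 3.54, 3.66 and 3.72 in DKO. The ratio was examined after the values had been seen, and no test was made. Besides each other, the genes whose log2 counts were most like those of Mt1 over the 10 libraries, among the 10185 genes that averaged 50 normalized counts or more, were Gne (r = 0.967), an enzyme of sialic acid synthesis, and Baz1b (r = 0.965), a chromatin remodelling subunit. For Mt2 they were Baz1b (r = 0.97) and Lyve1 (r = 0.965), a marker of sinusoidal endothelial cells.

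The other genes of zinc and copper handling gave a count of each direction for comparison. Of 17 tested genes, 0 passed in Nrf2 KO (beside 0.726% of all genes), 2 rose and 1 fell in p65 KO (beside 14.9%), and 1 rose in DKO (beside 5.45%). The median log2 fold changes of the 17 were -0.03, 0.13 and -0.08, against 0.00, 0.00 and 0.03 over all genes. Slc39a14, a zinc importer of hepatocytes induced in inflammation, rose by 1.17 in p65 KO (SE 0.157, adjusted p = 0.00198) and by 0.62 in DKO (SE 0.143, adjusted p = 0.0325). Slc30a1, the zinc exporter of the plasma membrane, rose by 0.55 in p65 KO (SE 0.161, adjusted p = 0.0447) and was lower in DKO than in p65 KO (log2 fold change -0.69, adjusted p = 0.0405). Slc30a10, a manganese exporter, fell by 1.15 in p65 KO (SE 0.212, adjusted p = 0.00748). Slc30a7, a zinc transporter of the Golgi, was lower in DKO than in p65 KO (log2 fold change -0.48, adjusted p = 0.036). Mtf1, the zinc-sensing factor itself, had log2 fold changes of 0.05, 0.13 and -0.08 in Nrf2 KO, p65 KO and DKO, none of which passed (adjusted p of at least 0.768). Mt3 and Mt4 were not tested because their counts were too low.

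Genes of glucocorticoid response and of the acute phase, which share known inducers with the metallothioneins, moved in both directions. Of those called in p65 KO and in DKO, more rose than fell. Of 12 glucocorticoid response genes, 1 rose in Nrf2 KO (beside 0.726% of all genes called), 2 rose and 1 fell in p65 KO (beside 14.9%), and 4 rose and 1 fell in DKO (beside 5.45%), with median log2 fold changes of 0.09, 0.39 and 0.76. Fkbp5, a chaperone of the glucocorticoid receptor, rose by 1.97 in p65 KO (adjusted p = 0.0157), and Per1, a clock gene, by 2.35 in p65 KO (adjusted p = 0.0124) and by 2.00 in DKO (adjusted p = 0.0301). Sgk1, a kinase, rose by 1.90 in Nrf2 KO (adjusted p = 0.0172) and by 2.45 in DKO (adjusted p = 0.00133). Tat, tyrosine aminotransferase, rose by 1.62 in DKO (adjusted p = 0.00766) and was higher in DKO than in p65 KO (log2 fold change 1.89, adjusted p = 0.0117), and Tsc22d3, a mediator of glucocorticoid action, rose by 1.64 in DKO (adjusted p = 0.0181). Igfbp1, a binding protein of insulin-like growth factors, fell in p65 KO, with a log2 fold change of -2.33 (adjusted p = 0.03). Gadd45a, a stress response gene, fell in DKO, with a log2 fold change of -1.18 (adjusted p = 0.0481), and was lower in DKO than in p65 KO (-1.43, adjusted p = 0.0385). Of 17 acute phase genes, 0 passed in Nrf2 KO (beside 0.726% of all genes), 5 rose and 1 fell in p65 KO (beside 14.9%), and 4 rose and 1 fell in DKO (beside 5.45%). The median log2 fold changes of the 17 were 0.18, 0.58 and 0.43, against 0.00, 0.00 and 0.03 over all genes. Lcn2, an iron-scavenging protein, rose by 2.67 in p65 KO (adjusted p = 0.00361) and by 3.16 in DKO (adjusted p = 0.00189). Orm2, Socs3 and Steap4 also rose in p65 KO, and Orm2, Saa2 and Itih4 also rose in DKO. Saa3, a serum amyloid, fell, with a log2 fold change of -2.99 in p65 KO (adjusted p = 0.00391) and of -2.57 in DKO (adjusted p = 0.00565).

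Among the peroxide-removing enzymes, Gpx4, which reduces lipid peroxides within membranes, fell in p65 KO and DKO hepatocytes. Gpx4 (chromosome 10, 79883000 to 79892273, plus strand) was at 9115, 7415 and 8335 normalized counts in control, at 5135 and 5491 in Nrf2 KO, at 4960 and 5985 in p65 KO, and at 5644, 4811 and 5355 in DKO. Every knockout library lay below every control library, and the 3 knockout genotypes overlapped each other. The log2 fold change was -0.60 in p65 KO (95% CI -0.89 to -0.31, adjusted p = 0.0159) and -0.65 in DKO (95% CI -0.91 to -0.39, adjusted p = 0.012). In Nrf2 KO it was -0.64 (95% CI -0.93 to -0.35), which did not pass (adjusted p = 0.0654) but did with DESeq2 (adjusted p = 0.000335). The difference between DKO and Nrf2 KO was -0.01 (95% CI -0.30 to 0.28) and that between DKO and p65 KO -0.05 (95% CI -0.34 to 0.23). The interaction was 0.59 (95% CI 0.18 to 1.00, unadjusted p = 0.00927, adjusted p = 0.216, edgeR). Without control replicate 1, the highest library, the adjusted p became 0.0537 for p65 KO and 0.0546 for DKO. Without p65 KO replicate 1 it became 0.14 for p65 KO. In GENCODE M39, 38.8% of the 31-base words of the Gpx4 transcripts also occur in the gene Gm63662. The study counted reads against an earlier release, and whether that release held Gm63662 was not checked. If it did, the split of reads between them is uncertain.

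Prdx1, a thiol peroxidase of the cytosol that is recycled by thioredoxin, fell in DKO. Prdx1 (chromosome 4, 116532123 to 116558398, plus strand) was at 42348, 35654 and 38111 normalized counts in control, at 27133 and 29452 in Nrf2 KO, at 25545 and 32153 in p65 KO, and at 24867, 22087 and 29130 in DKO. As for Gpx4, all 7 knockout libraries lay below the 3 control libraries. The log2 fold change was -0.61 in DKO (95% CI -0.91 to -0.30, adjusted p = 0.03), -0.45 in Nrf2 KO (95% CI -0.80 to -0.11, adjusted p = 0.342) and -0.42 in p65 KO (95% CI -0.77 to -0.08, adjusted p = 0.0904). DKO differed from Nrf2 KO by -0.16 (95% CI -0.50 to 0.18) and from p65 KO by -0.19 (95% CI -0.52 to 0.15), and the interaction was 0.27 (95% CI -0.21 to 0.75). The DKO call was lost without control replicate 1, 2 or 3 (adjusted p = 0.112, 0.0558 and 0.0663), without DKO replicate 1 or 2 (0.0801 and 0.0826), and with only control and DKO in the model (0.061). Of the 31-base words of Prdx1, 10.4% occur in the gene Gm64945.

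**Figure D2:**
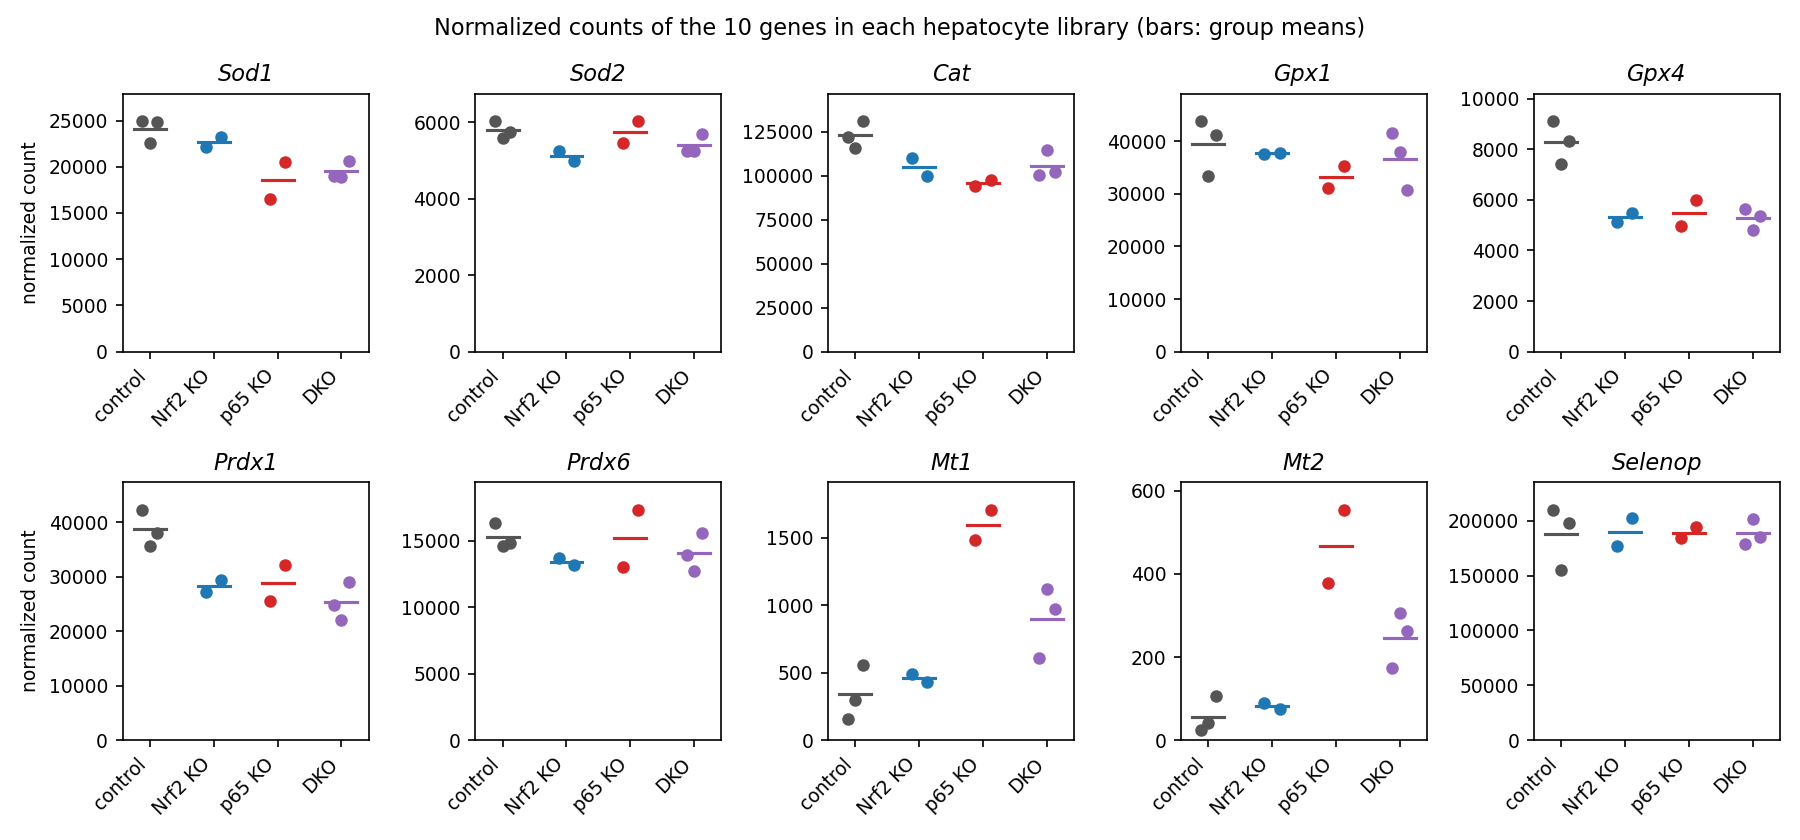
Normalized counts of the 10 genes in each of the 10 libraries, 1 panel per gene with its own axis from 0, points for libraries and bars for group means. For Gpx4 and Prdx1 the control points lie above all knockout points, for Mt1 and Mt2 the p65 KO points lie at the top, and for Selenop the groups overlap.

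The superoxide dismutases did not pass in any comparison. Sod1 (chromosome 16, 90017408 to 90027657, plus strand), the copper and zinc enzyme of the cytosol, was at 24930, 22593 and 24861 normalized counts in control, at 22171 and 23171 in Nrf2 KO, at 16504 and 20531 in p65 KO, and at 19029, 18936 and 20582 in DKO. The p65 KO and DKO libraries lay below the control libraries and the Nrf2 KO libraries overlapped with them. The log2 fold change of Sod1 was -0.38 in p65 KO (95% CI -0.66 to -0.10, adjusted p = 0.0639), -0.31 in DKO (95% CI -0.55 to -0.06, adjusted p = 0.138) and -0.09 in Nrf2 KO (95% CI -0.36 to 0.18). With DESeq2, the adjusted p of Sod1 was 0.0168 for p65 KO and 0.0447 for DKO. Sod2 (chromosome 17, 13224095 to 13259591, plus strand) encodes the manganese enzyme of mitochondria and is a well-known NF-κB target. It was at 6020, 5581 and 5738 in control, at 5249 and 4984 in Nrf2 KO, at 5446 and 6022 in p65 KO, and at 5251, 5248 and 5679 in DKO. The p65 KO libraries lay on both sides of the control range. The log2 fold change of Sod2 was -0.01 in p65 KO (95% CI -0.24 to 0.21), -0.10 in DKO (95% CI -0.30 to 0.10) and -0.18 in Nrf2 KO (95% CI -0.40 to 0.05). Of the 31-base words of Sod2, 16.5% occur in the gene Gm36684.

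Catalase, the peroxisomal enzyme that splits hydrogen peroxide, was lower than control in every knockout library without passing the test. Cat (chromosome 2, 103284194 to 103316185, minus strand) was at 121810, 115990 and 131000 normalized counts in control, at 110250 and 100060 in Nrf2 KO, at 94379 and 97644 in p65 KO, and at 100350, 114460 and 101990 in DKO. Its log2 fold changes were -0.23 in Nrf2 KO (95% CI -0.51 to 0.05), -0.36 in p65 KO (95% CI -0.64 to -0.08, adjusted p = 0.0829) and -0.22 in DKO (95% CI -0.47 to 0.03). Gpx1 (chromosome 9, 108216102 to 108217546, plus strand), the main glutathione peroxidase of the cytosol, was at 43854, 33367 and 41297 in control, at 37629 and 37775 in Nrf2 KO, at 31055 and 35378 in p65 KO, and at 41544, 37973 and 30680 in DKO. All 3 knockout groups overlapped with control, and the log2 fold change was -0.07 in Nrf2 KO (95% CI -0.42 to 0.29), -0.25 in p65 KO (95% CI -0.61 to 0.11) and -0.10 in DKO (95% CI -0.42 to 0.21).

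Prdx6 (chromosome 1, 161051417 to 161079098, minus strand), a peroxiredoxin that uses glutathione and also has phospholipase activity, was at 16336, 14596 and 14859 normalized counts in control, at 13695 and 13151 in Nrf2 KO, at 13019 and 17342 in p65 KO, and at 13952, 12710 and 15566 in DKO. The Nrf2 KO libraries lay below control and the others overlapped with it. The log2 fold changes were -0.19 in Nrf2 KO (95% CI -0.50 to 0.13), -0.01 in p65 KO (95% CI -0.32 to 0.31) and -0.12 in DKO (95% CI -0.40 to 0.17). Selenop (chromosome 15, 3298029 to 3313686, plus strand) was at 210220, 155120 and 197920 in control, at 176900 and 202230 in Nrf2 KO, at 183950 and 194710 in p65 KO, and at 178780, 201440 and 185280 in DKO. All groups overlapped, and the log2 fold change was 0.01 in each knockout, with a 95% CI of -0.33 to 0.35 in Nrf2 KO, the same in p65 KO, and -0.30 to 0.31 in DKO.

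Read against the whole table, the share of members called differed between the comparisons. In Nrf2 KO, 0 of 10 members passed with edgeR, and 2 had an unadjusted p under 0.05, while 0.726% of all genes passed. DESeq2 and limma each called 1 member, Gpx4, beside 2.34% and 0.762% of all genes. In p65 KO, 3 of 10 passed, beside 14.9% of all genes (8.13% higher and 6.77% lower), and 2 also passed a log2 fold change of 1, beside 6.59%. In DKO, 4 of 10 passed, beside 5.45% of all genes (2.61% higher and 2.84% lower), and 2 also passed the fold threshold, beside 2.38%. The DKO count was 0 without control replicate 1, beside 1.68% of all genes. It was 1 (Gpx4) without control replicate 2 (beside 2.54%), without DKO replicate 2 (beside 3.52%) or with only control and DKO in the model (beside 3.19%). Between DKO and Nrf2 KO, 0 of 10 passed with edgeR, beside 0.513% of all genes, and 2 had an unadjusted p under 0.05. DESeq2 called 1, Mt2, beside 3.65% of all genes. Between DKO and p65 KO, 0 of 10 passed with edgeR, beside 4.11%, and 0 had an unadjusted p under 0.05. DESeq2 called 0, beside 9.46%. For the interaction, 0 of 10 passed with edgeR, beside 0.469%, and 3 (Gpx4, Mt1 and Mt2) had an unadjusted p under 0.05. DESeq2 called 0, beside 2.93%. The libraries of a group did not overlap with control for 5 members in Nrf2 KO (beside 28.5% of all genes, all 5 lower, beside 13.6%), for 6 in p65 KO (beside 50%) and for 6 in DKO (beside 26.5%). In p65 KO, 4 of these were lower, beside 23.8% of all genes, and 2 higher, beside 26.2%, and in DKO, 4 were lower, beside 13.2%, and 2 higher, beside 13.2%. Between DKO and Nrf2 KO the libraries did not overlap for 3 members (beside 32.2%), of which 1 was lower in DKO (beside 16.4%) and 2 higher (beside 15.8%). Between DKO and p65 KO they did not overlap for 3 (beside 38.6%), of which 2 were lower in DKO (beside 20.1%) and 1 higher (beside 18.5%). The median log2 fold change of the 10 members was -0.13 in Nrf2 KO (0.00 over all genes), -0.13 in p65 KO (0.00 over all genes) and -0.11 in DKO (0.03 over all genes). All 3 comparisons share the same control libraries.

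**Figure D3:**
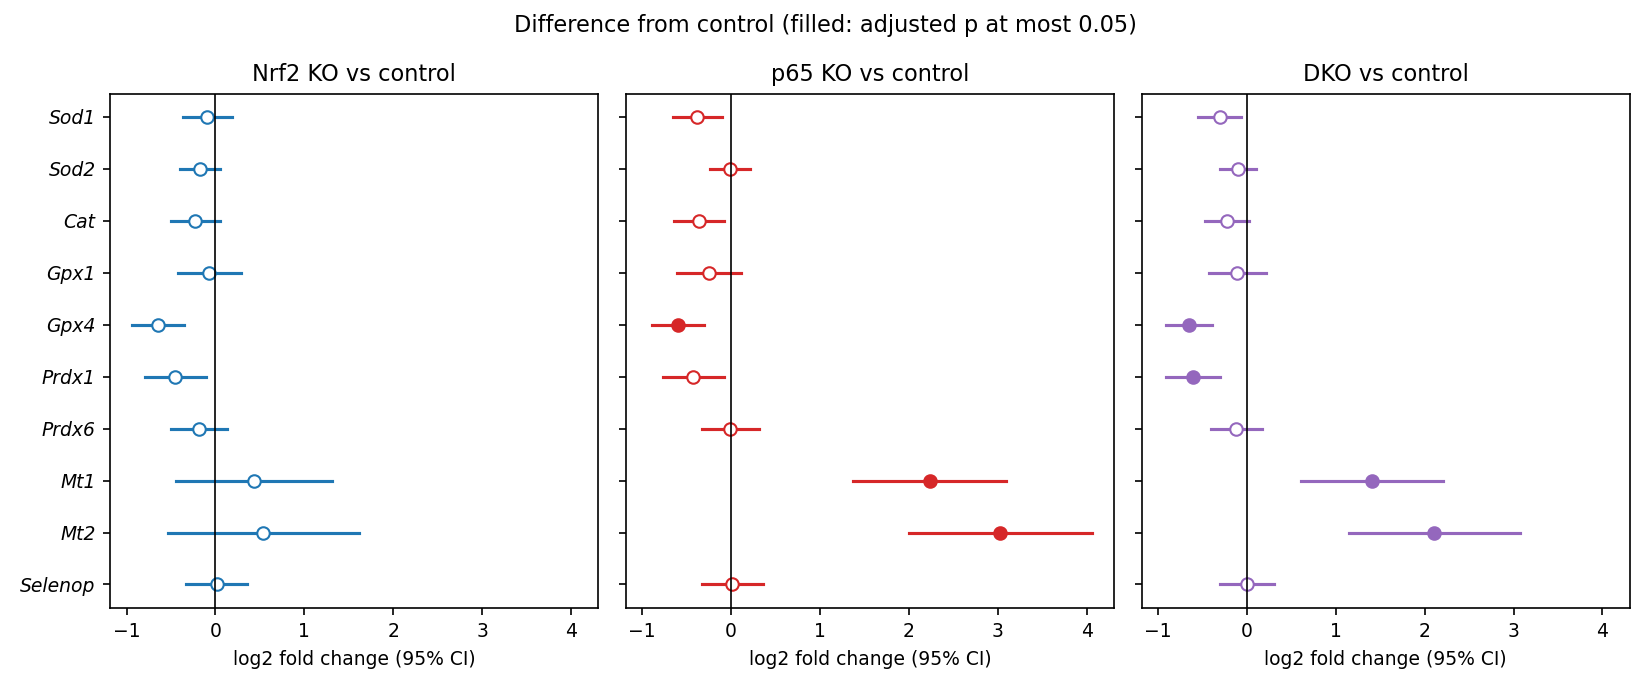
Log2 fold change against control with its 95% CI for the 10 genes in each of the 3 knockout genotypes, with filled points for an adjusted p of at most 0.05. The intervals of Mt1 and Mt2 in p65 KO run from 1.37 to 3.10 and from 2.00 to 4.06, whereas those of Gpx4 lie below 0 in all 3 panels.

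Partners of these enzymes recycle thioredoxin, glutathione and oxidized peroxiredoxin. Of 22 other superoxide and peroxide enzymes tested, 2 fell in Nrf2 KO (beside 0.726% of all genes called), 1 rose and 4 fell in p65 KO (beside 14.9%), and 4 fell in DKO (beside 5.45%). Their median log2 fold changes were -0.14, -0.16 and -0.21, against 0.00, 0.00 and 0.03 over all genes. Srxn1, sulfiredoxin, which repairs overoxidized peroxiredoxins, was at between 1613 and 2269 normalized counts in control, between 780.04 and 806 in Nrf2 KO, between 1148 and 1172 in p65 KO and between 628 and 875 in DKO. It decreased by 1.31 in Nrf2 KO (adjusted p = 0.00597), by 0.77 in p65 KO (adjusted p = 0.0157) and by 1.34 in DKO (adjusted p = 0.00133). Txnrd1, the cytosolic thioredoxin reductase, decreased by 0.73 in Nrf2 KO (adjusted p = 0.0469) and by 0.78 in DKO (adjusted p = 0.00705), and it was lower in DKO than in p65 KO (log2 fold change -0.58, adjusted p = 0.0435). Gsr, glutathione reductase, decreased by 0.59 in p65 KO (adjusted p = 0.0198) and by 0.91 in DKO (adjusted p = 0.00304). Txn1, thioredoxin, decreased by 0.54 in p65 KO (adjusted p = 0.037) and by 0.64 in DKO (adjusted p = 0.0221). Neither Gsr nor Txn1 passed in Nrf2 KO, but the levels of both there were near those in p65 KO. Gsr was between 2650 and 3635 normalized counts in control, between 2095 and 2256 in Nrf2 KO, and between 2070.5 and 2095 in p65 KO. Txn1 was between 7080 and 7962 in control, between 5010 and 5585 in Nrf2 KO, and between 4306.5 and 5955 in p65 KO. Txnrd2, the mitochondrial thioredoxin reductase, decreased by 0.65 in p65 KO (adjusted p = 0.00968) and was higher in DKO than in p65 KO (log2 fold change 0.53, adjusted p = 0.0438). Sod3, the secreted superoxide dismutase, was between 6.88 and 16.8 normalized counts in control, between 167.3 and 187 in p65 KO and between 30.9 and 85.3 in DKO, and it rose by 4.05 in p65 KO (SE 0.616, adjusted p = 0.00333). In Nrf2 KO it was at 2.42 and 12.9. The summed Kupffer, endothelial and stellate markers were also higher in p65 KO than in control, and their part was not tested.

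**Figure D4:**
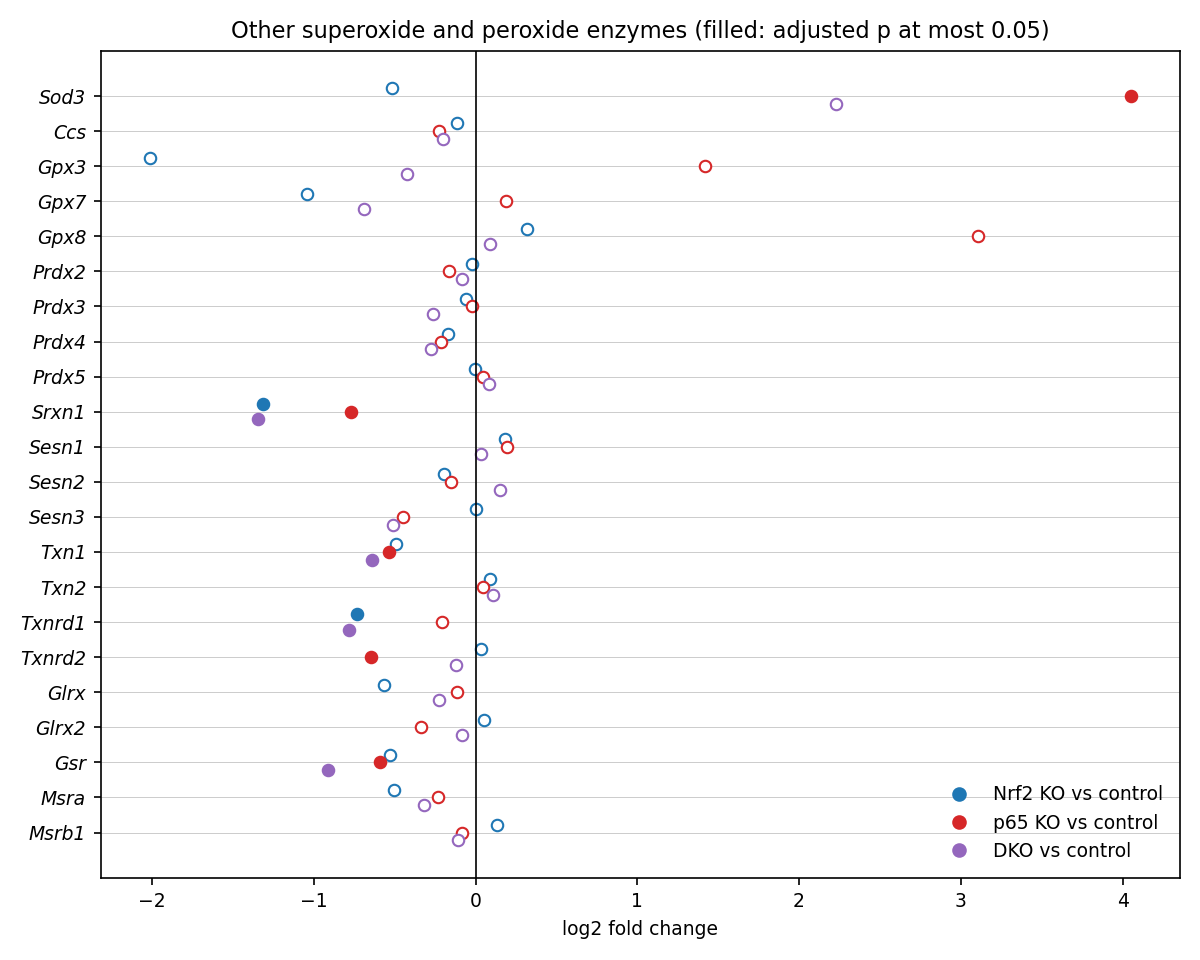
Log2 fold change against control of the 22 other superoxide and peroxide enzymes tested, coloured by genotype, with filled points for an adjusted p of at most 0.05. Srxn1 is filled on the negative side in all 3 genotypes, and Sod3 is filled at 4.05 in p65 KO.

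Enzymes that produce peroxide or superoxide moved in both directions. Of 17 tested, 2 fell in Nrf2 KO (beside 0.726% of all genes called), 3 rose and 2 fell in p65 KO (beside 14.9%), and 1 rose and 3 fell in DKO (beside 5.45%). Acox2, a peroxisomal oxidase of branched fatty acids and bile acid intermediates, decreased by 0.64 in p65 KO (adjusted p = 0.0134) and by 0.71 in DKO (adjusted p = 0.0089). Aox1, an aldehyde oxidase, fell, by a log2 fold change of -2.29 in Nrf2 KO (adjusted p = 0.000563) and -2.52 in DKO (adjusted p = 9.04e-05), and it was lower in DKO than in p65 KO (-2.00, adjusted p = 0.000886). Xdh, xanthine dehydrogenase, rose by 0.68 in p65 KO (adjusted p = 0.00391). Cybb, the catalytic subunit of the phagocyte NADPH oxidase, was between 9.94 and 18.7 normalized counts in control, between 174.8 and 265.2 in p65 KO and between 41.2 and 79.9 in DKO, and it rose by 3.81 in p65 KO (adjusted p = 0.000789) and by 2.02 in DKO (adjusted p = 0.0179), together with the Kupffer cell markers given above.

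Gpx1, Gpx4 and Selenop are selenoproteins, which carry selenium as selenocysteine. Of 22 tested genes of selenoprotein synthesis and other selenoproteins, 0 passed in Nrf2 KO (beside 0.726% of all genes), 1 fell in p65 KO (beside 14.9%) and 1 fell in DKO (beside 5.45%), with median log2 fold changes of -0.04, -0.04 and -0.11. Both genes that passed encode selenoproteins. Selenok, a protein of the endoplasmic reticulum membrane, decreased by 0.60 in p65 KO (adjusted p = 0.0168), and Selenoi, an enzyme of phospholipid synthesis, decreased by 0.80 in DKO (adjusted p = 0.0229). The mitochondrial gene Nnt, which supplies NADPH to peroxide-removing enzymes and is deleted in part in some C57BL/6 substrains, was between 703 and 767 normalized counts in control, at 1046 and 536 in Nrf2 KO, at 2582 and 1941 in p65 KO, and at 1333, 698 and 1174 in DKO. It rose by 1.64 in p65 KO (adjusted p = 0.00614). The p65 KO libraries lay above all others. Wdfy1, the other gene listed as differing between substrains, was between 208.7 and 342 normalized counts in control and between 279.4 and 295 in p65 KO (log2 fold change 0.01, adjusted p = 0.987). The study's methods give all mice the same genetic background, and the part of substrain in these values was not tested.

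**Figure D5:**
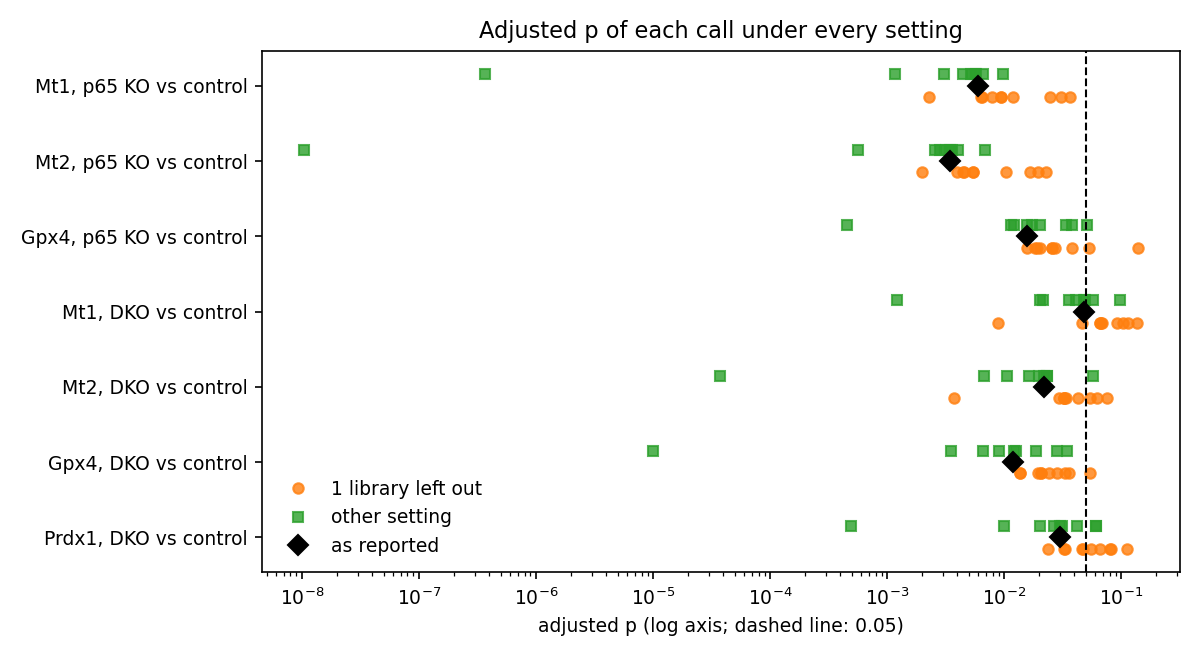
Adjusted p (log axis) of the 7 calls against control as reported (diamonds), with 1 library left out (circles) and under the other settings (squares), with a dashed line at 0.05. The calls of Mt1 and Mt2 in p65 KO stay left of the line in every setting, whereas Mt1 in DKO, at 0.0482, lies close to it and crosses it in 10 settings.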

How the data were processed

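The libraries were made from polyadenylated RNA with a stranded kit, 1 per mouse. The authors quantified reads with Salmon 1.10.3 against GRCm39 transcripts and deposited estimated counts per gene as whole numbers. Its name calls the table normalized, yet library totals and size factors (0.876 to 1.25) differed, and the values were treated as estimated counts. Columns were mapped to mice by the labels, and no column was left over. The 13641 genes whose summed count reached 10 entered edgeR 4.0.16 (R 4.3.3), with TMM factors and 1 model over 10 libraries, at an adjusted p of 0.05 and, as a further rule, a log2 fold change of 1. Replicates differed by more than sampling noise (chi-square per degree of freedom of 46.9 to 215), and p-values measure the spread between mice. Alternatives were DESeq2 1.42.0, limma 3.58.1 on log2(normalized count + 1), other scalings and filters, a block for the replicate number, a model of only 2 genotypes, and omission of each library in turn. Total counts were between 33707165 and 49897382. All members but Mt1 overlap a gene on the opposite strand, which the stranded counting keeps apart. Positions came from GENCODE M39, which held 21926 of the identifiers. The named genes are all 10 members, the targeted genes, up to 5 genes per list and comparison with the largest change among those that passed and averaged 50 normalized counts or more, and the 3 genes most like Mt1 and Mt2; Mtf1 and Nnt in groups where they did not pass were named after their values were seen. The members and gene lists were chosen with earlier results of these data known. A gene that the rule for named genes would include is not reported here. Protein sequences were not used here.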

Additional observations from a re-analysis of the deposited data

How the results depend on the processing

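The calls of Mt1 and Mt2 in p65 KO were kept under all 19 alternatives each. For the members counted, the number that passed in Nrf2 KO was 1 with DESeq2, with limma, with equal totals and without a filter, in place of 0. Beside it, 2.34%, 0.762%, 0.718% and 0.902% of all genes passed, in place of 0.726%. In p65 KO the number was 6 with DESeq2 (Sod1, Cat, Gpx4, Prdx1, Mt1 and Mt2), beside 19.6% of all genes in place of 14.9%. Between DKO and Nrf2 KO it was 1 with DESeq2, beside 3.65% in place of 0.513%. In DKO it was 5 with DESeq2 (Sod1 added), beside 10.7% in place of 5.45%. With only the 2 genotypes compared it was 1, beside 3.19%. With 1 control or DKO library left out, the DKO number was between 0 (without control replicate 1, beside 1.68%) and 3. With equal totals, the Mt1 call in DKO was lost (1.32, adjusted p = 0.0576), as it was with only the 2 genotypes compared (adjusted p = 0.099), where Mt2 (0.0572) and Prdx1 (0.061) were lost too. Equal totals moved the median of all genes by 0.18 in p65 KO, by -0.27 between DKO and p65 KO and by -0.27 for the interaction, so values are read relative to that shift.

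Deviations from the group means correlated between -0.23 and 0.11 over 13 same-numbered pairs, which share libraries. These values gave no sign that the replicate numbers pair the mice, but they cannot exclude it. With the replicate number as a block, Gpx4 in p65 KO (-0.59, adjusted p = 0.051) and Prdx1 in DKO (-0.62, adjusted p = 0.0618) no longer passed, and no other call of a member changed. Prdx6 and Sod2 in p65 KO, near 0, became 0.018 and 0.005 with the block.

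The other changes of sign were of values that did not pass. Prdx6 in p65 KO became 0.006 with DESeq2 and with its size factors in edgeR, 0.01 with upper quartiles, 0.17 with equal totals, 0.009 with a filter on a mean of 10 counts and 0.004 with only the 2 genotypes, and Sod2 in p65 KO 0.004, 0.004, 0.007, 0.17, 0.006 and 0.001. With equal totals, Selenop in DKO became -0.077 and the interaction of Prdx1 -0.011. Gpx4 between DKO and Nrf2 KO became 0.016 with upper quartiles and 0.004 with the filter. With 1 library left out, the lowest and highest values were -0.229 and 0.185 for Prdx6 and -0.085 and 0.06 for Sod2 in p65 KO, -0.213 and 0.013 for Gpx1 in DKO, -0.176 and 0.014 for Gpx1 in Nrf2 KO, -0.059 and 0.05 for Gpx4 between DKO and Nrf2 KO, and -0.184 and 0.087 between DKO and p65 KO. For Selenop they were -0.107 and 0.107 in Nrf2 KO, -0.108 and 0.101 in p65 KO, and -0.114 and 0.095 in DKO. The cause of these changes was not tested. In all, 724 of the values kept their direction and side of the threshold, 25 were no longer past it, 11 newly passed and 34 changed sign. With 2 mice in 2 of the groups, differences of the size of that in Gpx1 or Cat may not be detected at this number of mice.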
